A study of Mus musculus with 6 samples.

Results

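This account covers 10 genes of cellular redox control among the 12625 genes counted in cultured mouse myotubes: the superoxide dismutases Sod1 and Sod2, the peroxidases Gpx1, Gpx3 and Prdx6, the stress-response genes Nqo1, Hmox1 and Osgin1, the mitochondrial carrier Ucp2, and Nos2, the inducible nitric oxide synthase. The genes were picked by name, and they were selected on results of the same comparison of RANKL with vehicle that is described here. Their differences between the groups are therefore given as measurements with intervals and with no p-value. All 10 were present in the count table. Nos2 reached the level at which genes were kept in that table only through the RANKL libraries.

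The cells were C2C12, an established line of mouse myoblasts that can be differentiated into myotubes, multinucleated muscle cells. After 5 days of differentiation the myotubes received recombinant mouse RANKL at 100 ng per ml for 72 h (3 libraries), while the other 3 libraries came from C2C12 cells given vehicle. The labels name no genetic change in either group. RANKL binds the receptor RANK and is best known for driving osteoclast formation, and the study asked what it does to muscle cells. RNA was read in paired reads of 75 bases, and the labels state that isolation and sequencing of these samples took place together. Nothing in the labels says that replicates came from separate cultures, so the spread between libraries, and any p-value resting on it, may be technical. All results come from 1 cell line.

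Library totals lay between 32732604 and 39677999 counts. CPM below are counts per 1000000 of each library's total after TMM scaling. Of 11 markers of myotubes 10 were measured, and their summed level was 26473 to 26641 CPM in vehicle and 24749 to 25460 CPM in RANKL libraries. With edgeR at an adjusted p under 0.05, 3 of the 10 passed as lower and 0 as higher, beside 7.5% and 5.35% of all genes. These 3 were the embryonic and perinatal myosins Myh3 and Myh8 and skeletal actin Acta1. Of the others, the troponin gene Tnnt1 was higher in every RANKL library (log2 fold change 0.11) and Des lower in every one (-0.07), Tnnt3, Ckm and Mylpf stood at 0.05, 0.04 and 0.03 and Myod1 at -0.07, and the differentiation factor Myog was at 540 CPM in vehicle and 542 CPM in RANKL libraries. RNA came from whole cultures, so fewer cells of a type and less RNA per cell cannot be told apart in any value below.

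Superoxide, formed largely as a by-product of respiration and by NADPH oxidases, is converted to hydrogen peroxide by the superoxide dismutases. Catalase, glutathione peroxidases and peroxiredoxins then remove the peroxide, the peroxidases and peroxiredoxins drawing on glutathione or thioredoxin that is kept reduced by NADPH. The transcription factor NRF2, held in check by KEAP1, switches on many genes of this defence, Nqo1, Hmox1 and Osgin1 among them. Nos2 makes nitric oxide from arginine and is the synthase that cells induce under inflammatory signals, mainly through NF-kB. In skeletal muscle, peroxide and nitric oxide are both signals of contraction and agents of damage.

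Nos2, Sod2, Gpx3 and Prdx6 were higher in every RANKL library than in every vehicle library, and Ucp2, Osgin1 and Hmox1 were lower in every one. Sod1, Gpx1 and Nqo1 overlapped between the groups. Apart from Nos2 the differences were small, with a highest log2 fold change of 0.34 (Gpx3) and a lowest of -0.25 (Osgin1). With edgeR's quasi-likelihood test over all genes at an adjusted p under 0.05, 6 of the 10 genes passed, 4 as higher (Sod2, Nos2, Gpx3 and Prdx6) and 2 as lower (Ucp2 and Osgin1), and 5 of the 9 other than Nos2. Over all genes 12.9% passed, 5.35% as higher and 7.5% as lower, and the groups did not overlap in 31.5%. Of all calls 41.7% were higher (676 higher, 947 lower), against 63.1% (1070 higher, 626 lower) where libraries were scaled by their total counts alone. Because the 10 genes were chosen by this contrast, their passes, here and under the alternatives below, are a description and no independent test. Nothing is read from how their count stands beside those shares. Nos2 was kept in the count table only through its RANKL libraries, so its pass and its lack of overlap carry no weight as evidence.

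**Figure D1:**
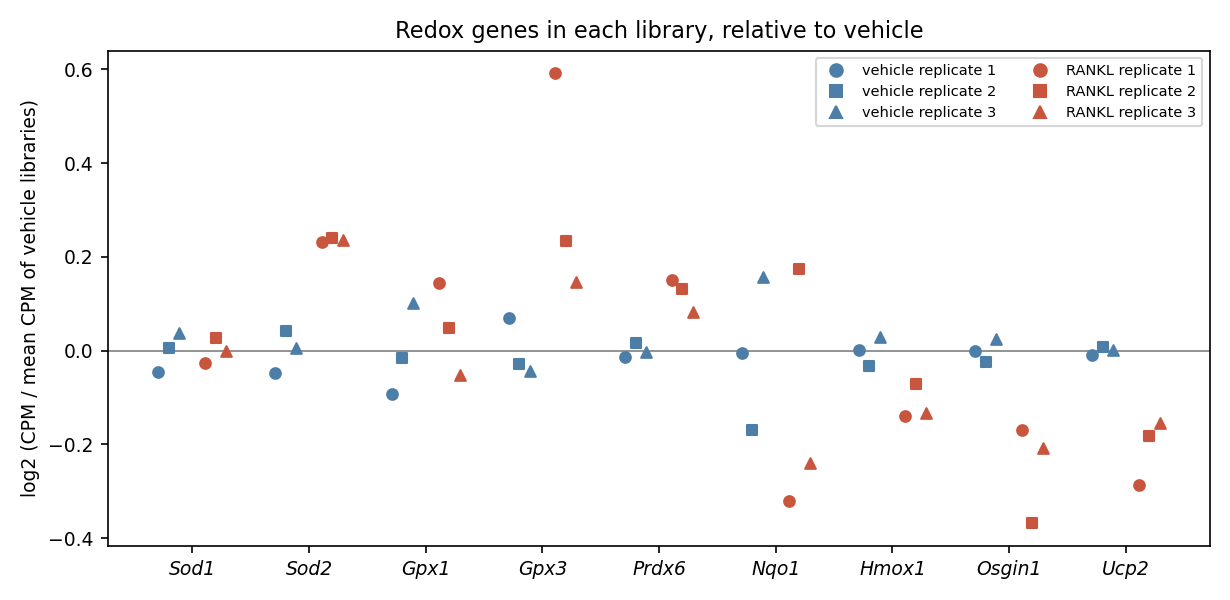
Level of 9 of the 10 genes in each library, as the log2 ratio of CPM to the mean of the 3 vehicle libraries, with vehicle in blue and RANKL in red and 1 marker shape per replicate number. The 3 RANKL points of Sod2 lie almost on each other above the vehicle points, while those of Gpx3 are spread out with RANKL replicate 1 far above the others. Nos2 is left out because a vehicle library had 0 counts.

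Sod1, the copper-zinc superoxide dismutase of the cytosol (mm10 chr16:90220754-90226329, plus strand), stood at 91.3, 94.6 and 96.7 CPM in the vehicle libraries and at 92.4, 96.0 and 94.2 CPM in the RANKL libraries. Both groups had a mean of 94.2 CPM, with an SD of 2.73 in vehicle and 1.77 in RANKL (n = 3 each). The 95% interval of the log2 fold change ran from -0.07 to 0.07 and so held differences of either sign.

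Sod2, the manganese superoxide dismutase of the mitochondrial matrix (chr17:13006846-13040063, plus strand), was at 92.5, 98.5 and 96.0 CPM in vehicle and at 112.3, 113.1 and 112.6 CPM in RANKL libraries. The RANKL libraries were close to each other and all lay above the vehicle libraries. The means were 95.7 ± 3.00 and 113 ± 0.390 CPM (SD, n = 3 each), a fold of 1.18. The log2 fold change was 0.24 ± 0.03 (SE), with a 95% interval from 0.16 to 0.31, and it stayed between 0.21 and 0.27 over all 13 alternative settings. Sod2 is a textbook target of NF-kB, in contrast to the mostly constitutive Sod1.

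The promoters of these 2 dismutases, and of Ucp2 and Osgin1 described further on, are shown because these genes differ in how they stood between the groups. Each line holds 100 bases, from 130 to 31 bases before the RefSeq gene start on GRCm38.p6, and lies in no annotated exon. Capitals mark matches, on either strand, to the GC box (GGGCGG), the antioxidant response element core (TGACNNNGC), the AP-1 site (TGACTCA or TGAGTCA) and the NF-kB consensus.
Sod2: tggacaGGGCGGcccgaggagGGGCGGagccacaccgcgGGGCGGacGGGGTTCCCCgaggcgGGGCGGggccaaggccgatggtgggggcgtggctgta
Sod1: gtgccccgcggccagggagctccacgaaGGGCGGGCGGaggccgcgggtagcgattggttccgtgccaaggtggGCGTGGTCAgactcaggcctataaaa
Ucp2: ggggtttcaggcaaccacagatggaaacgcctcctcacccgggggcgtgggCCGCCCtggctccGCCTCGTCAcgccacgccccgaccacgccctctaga
Osgin1: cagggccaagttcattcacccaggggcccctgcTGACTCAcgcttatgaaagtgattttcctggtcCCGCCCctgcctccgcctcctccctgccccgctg
The windows are chr17:13007709-13007808 for Sod2, chr16:90220632-90220731 for Sod1, chr7:100493228-100493327 for Ucp2 and chr8:119437017-119437116 for Osgin1, all on the plus strand. The RefSeq starts differ from the GENCODE starts printed with the genes. The Sod2 and Osgin1 windows therefore lie inside the GENCODE spans, which begin at chr17:13006846 and chr8:119434124. Those of Sod1 and Ucp2 lie before the GENCODE start.

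The Sod2 window held 4 GC boxes and, at 83 to 74 bases before the start, a match to the NF-kB consensus on both strands. In the Sod1 window a pair of GC boxes overlapped each other, and an antioxidant response element core lay at 56 to 48 bases before the start. The Ucp2 window held such a core at 66 to 58 bases before the start, and Osgin1 an AP-1 site at 97 to 91. Promoters of 300 bases (250 before to 50 after the start) were found for 7 of the 10 genes, all but Nos2, Prdx6 and Hmox1. The GC box was in 7 of those 7 and in 35.7% of all 32851 promoters of that length. The antioxidant response element core was in 2 of 7 (Sod1 and Ucp2) and in 12.4% of all, the AP-1 site in 1 of 7 (Osgin1) and in 5.20% of all, and the NF-kB consensus in 3 of 7 (Sod2, Gpx1 and Gpx3) and in 8.46% of all. Of the other motifs searched, the E-box (CANNTG) was in 1 of 7 (Ucp2) and in 72.3% of all, the CCAAT box (CCAAT) in 3 of 7 and in 37.4% of all, and the TATA box (TATAAA) in 2 of 7 and in 13.6% of all. The GC content of the 7 promoters ran from 47.0% (Gpx1) to 66.7% (Sod1), above the median of 52.7% over all promoters in each but Gpx1. Of the genes with the NF-kB consensus, Sod2 and Gpx3 were higher under RANKL, while Gpx1 overlapped between the groups. Of those with the antioxidant response element core, Sod1 overlapped and Ucp2 was lower. A match is a description of the letters only, no binding was measured, and a link between motif and difference was not tested.

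The 2 glutathione peroxidases are set apart from the other 8 genes by a selenocysteine, the selenium-bearing residue at the active site, which is encoded by an in-frame TGA that elsewhere ends translation. It is shown here in capitals with 12 coding bases on each side, from the GENCODE M21 transcripts.
Gpx1: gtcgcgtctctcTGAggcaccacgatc
Gpx3: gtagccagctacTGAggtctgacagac
The codon is number 47 of 201 in Gpx1 (chr9:108339451-108339453) and number 73 of 226 in Gpx3 (chr11:54907256-54907258). The coding sequences of the other 8 genes had 0 in-frame TGA codons before their end.

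Gpx1, the peroxidase of cytosol and mitochondria (chr9:108338903-108340343, plus strand), gave 58.0, 61.2 and 66.3 CPM in vehicle and 68.3, 63.9 and 59.7 CPM in RANKL libraries. The groups overlapped, and the log2 fold change was 0.05 ± 0.05 (SE), with a 95% interval from -0.07 to 0.17. Gpx3, the secreted form of the family (chr11:54902453-54910377, plus strand), gave 73.6, 68.7 and 68.1 CPM in vehicle and 106, 82.5 and 77.6 CPM in RANKL libraries. The groups did not overlap, but RANKL replicate 1 was far above the other 2. The means were 70.1 ± 3.05 and 88.6 ± 14.98 CPM (SD, n = 3 each), and the log2 fold change was 0.34 ± 0.08 (SE), with a 95% interval from 0.16 to 0.52. Without RANKL replicate 1 it was 0.19, and the gene was not called with DESeq2 or without vehicle replicate 2 or 3.

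Prdx6, a peroxiredoxin with a single catalytic cysteine that also acts on phospholipids (chr1:161240112-161251219, minus strand), stood at 181, 185 and 183 CPM in vehicle and at 203, 200.3 and 194 CPM in RANKL libraries. The groups did not overlap, and the means were 183 ± 2.01 and 199 ± 4.89 CPM (SD, n = 3 each). Its log2 fold change of 0.12 ± 0.03 (SE), with a 95% interval from 0.05 to 0.19, was the smallest in size among the 6 that passed, and the call was lost without any 1 of the vehicle libraries or RANKL replicate 2. The mouse genome also holds the related gene Prdx6b and a Prdx6 pseudogene, which are not analysed here and whose reads the counting could have split from Prdx6.

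Of the 3 stress-response genes, Nqo1, a quinone reductase often used as a readout of NRF2 (chr8:107388225-107403206, minus strand), had 127, 97 and 135 counts in vehicle and 99, 126 and 92 in RANKL libraries, or 2.63 to 3.70 CPM over all 6. The groups overlapped, and the interval of its log2 fold change, -0.12 ± 0.15 (SE), ran from -0.44 to 0.21, the widest among the 9 genes other than Nos2. Hmox1, the inducible heme oxygenase that breaks heme into biliverdin, iron and carbon monoxide (chr8:75093621-75100589, plus strand), was at 45.6, 44.6 and 46.5 CPM in vehicle and at 41.4, 43.4 and 41.6 CPM in RANKL libraries. Every RANKL library was below every vehicle library, and the means were 45.6 ± 0.976 and 42.1 ± 1.12 CPM (SD, n = 3 each). The log2 fold change was -0.11 ± 0.04 (SE), with a 95% interval from -0.20 to -0.03, and it was not past the threshold over all genes. Osgin1, a growth inhibitor induced by oxidative stress (chr8:119434124-119446256, plus strand), was at 26.7, 26.2 and 27.1 CPM in vehicle and at 23.7, 20.7 and 23.1 CPM in RANKL libraries. The means were 26.7 ± 0.449 and 22.5 ± 1.61 CPM (SD, n = 3 each), with RANKL replicate 2 the lowest. The log2 fold change was -0.25 ± 0.06 (SE), with a 95% interval from -0.37 to -0.12, and without RANKL replicate 2 it was -0.19 and no longer called.

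Ucp2, a carrier of the inner mitochondrial membrane that is linked to lower mitochondrial superoxide (chr7:100493337-100502020, plus strand), was at 107, 108 and 108 CPM in vehicle and at 88.4, 95.1 and 96.9 CPM in RANKL libraries. The vehicle libraries were nearly equal and all RANKL libraries lay below them. The means were 108 ± 0.610 and 93.5 ± 4.46 CPM (SD, n = 3 each), a fold of 0.866. The log2 fold change was -0.21 ± 0.04 (SE), with a 95% interval from -0.29 to -0.13, and it stayed between -0.23 and -0.17 over all 13 alternatives. Ucp2 shares exon sequence with Dnajb13 on the opposite strand, and since no source used here states whether counting used strand, its count is uncertain to that extent.

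**Figure D2:**
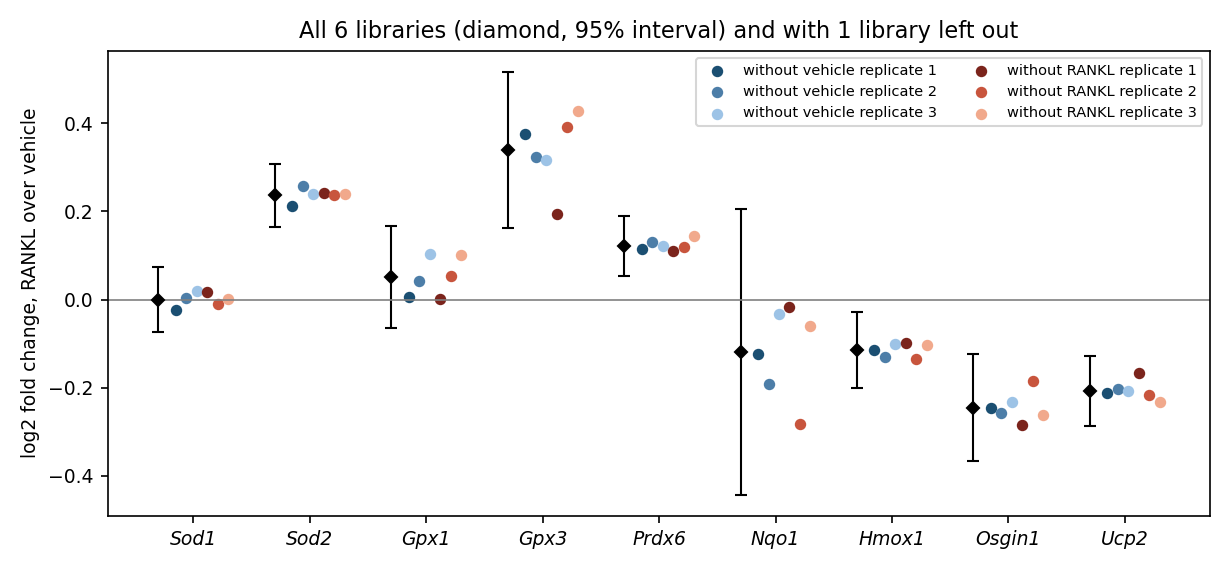
Log2 fold change of 9 of the 10 genes with all 6 libraries (diamond, bar for the 95% interval) and after leaving out each library in turn (coloured points). Sod2, Ucp2 and Prdx6 stay close to their diamonds, Gpx3 drops to 0.19 without RANKL replicate 1, and Nqo1 moves between -0.28 and -0.02.

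Nos2 (chr11:78920787-78960254, plus strand) had 1, 1 and 0 counts in the vehicle libraries and 28, 32 and 35 counts in the RANKL libraries. The RANKL libraries thus all lay far above the vehicle libraries, at 0.743, 0.940 and 1.06 CPM against 0.0257, 0.0301 and 0 CPM. The count of 0 in vehicle replicate 3 allows up to 3 counts, or 0.0810 CPM of the unscaled total. Summed over libraries, 2 counts stood against 95, a ratio of 50.5 per total count, with an exact binomial 95% interval from 13.6 to 423 that covers counting error only. Without vehicle replicate 3 the ratio was 33.5 (interval 9.03 to 281), and it ranged up to 70.2 without vehicle replicate 2. Even under RANKL the gene was rare: on the authors' scale per gene length it was at 0.243 RPKM (CPM per kilobase), against 2.60 RPKM for Nos1 and 0.250 RPKM for Nos3, the neuronal and the endothelial synthase.

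Nos1 and Nos3 did not pass the test. Nos1, the main synthase of muscle fibres, was at 23.6, 23.6 and 20.04 CPM in vehicle and at 31.0, 23.0 and 21.4 CPM in RANKL libraries, with a log2 fold change of 0.17 ± 0.11 (SE, adjusted p = 0.343) that was -0.01 without RANKL replicate 1. Nos3 had 23, 36 and 28 counts in vehicle and 34, 36 and 32 in RANKL libraries (0.28 ± 0.24, adjusted p = 0.498). Both share exons with other genes on the opposite strand. Gch1, which makes the synthases' cofactor tetrahydrobiopterin, stood at 0.12 ± 0.11 on the same scale and did not pass (adjusted p = 0.533).

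Slc7a2 and Slc7a1, 2 transporters that bring arginine, the substrate of Nos2, into the cell, moved in opposite directions. Slc7a2 (CAT2) was at 52.5, 58.8 and 54.0 CPM in vehicle and at 91.9, 106.5 and 102.7 CPM in RANKL libraries. It rose 1.82-fold, by a log2 fold change of 0.87 ± 0.05 (SE, adjusted p = 1.3e-07). Slc7a1 (CAT1), the constitutive form, was at 94.7, 99.3 and 89.2 CPM in vehicle and at 70.1, 76.7 and 79.6 CPM in RANKL libraries, and it fell by 0.32 ± 0.05 on the log2 scale (adjusted p = 0.000646). Neither gene's groups overlapped, and both calls held in all 13 alternatives. Of the 2, Slc7a1 had more counts in vehicle and Slc7a2 under RANKL, in a scale not corrected for gene length. Of 24 genes of nitric oxide synthesis, cofactor supply and arginine handling 15 were measured, and these 2 were the ones that passed. The median over the list was 0.04 on the log2 scale, and that over all genes 0.0047. Arg1 and Arg2, the arginases, are not analysed here.

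**Figure D3:**
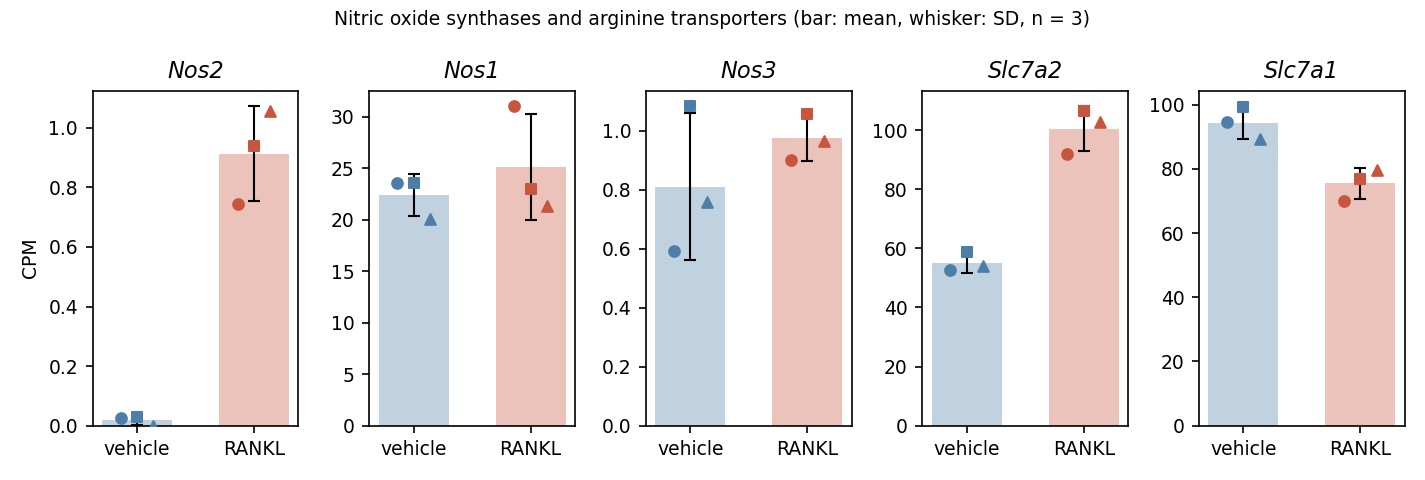
CPM of the 3 nitric oxide synthases and the arginine transporters Slc7a2 and Slc7a1, each panel with its own axis starting at 0. Points are libraries (circle, square and triangle for replicates 1, 2 and 3), bars the mean and whiskers the SD of 3. Nos2 and Slc7a2 are higher under RANKL without overlap, Slc7a1 is lower, and Nos1 and Nos3 overlap.

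Of 12 macrophage markers 4 were measured (Cd68, Itgam, Cd14 and Mrc1), while Ptprc, Csf1r, Adgre1, Lyz2, Tyrobp, Cd74, Fcgr1 and Lyz1 are not analysed here. The summed level of the 4 was 5.30 to 5.93 CPM in vehicle and 6.44 to 7.32 CPM in RANKL libraries. Every RANKL library thus lay above every vehicle library, where 31.5% of all single genes also did not overlap. The sum was above the CPM of Nos2 in each library, on a scale not corrected for gene length. Cd14 made up most of the sum, with means of 3.62 CPM in vehicle and 4.44 CPM under RANKL, and alone did not overlap. Cd68 (0.534 and 0.835 CPM) and Itgam (0.756 and 1.05 CPM) had higher means under RANKL and Mrc1 a lower one (0.608 and 0.440 CPM), each with overlap. With edgeR 0 of the 4 passed, as with DESeq2 and limma-voom, and 1 had an unadjusted p under 0.05. The 2 measured endothelial markers summed to 1.57 to 2.47 CPM in vehicle and 1.97 to 2.28 CPM in RANKL libraries. The part of such cells in the Nos2 counts was not tested.

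Levels of different genes can be compared only per gene length, and for this the authors' log2 RPKM values were used. In vehicle the order was Sod1 (145 RPKM), Prdx6 (73.5), Ucp2 (68.5), Gpx1 (59.1), Gpx3 (46.3), Hmox1 (29.0), Sod2 (25.0), Osgin1 (13.6), Nqo1 (2.15 RPKM) and Nos2 (0.0187 RPKM, where the authors' value is above 0 also for the library with 0 counts). No neighbours in this order overlapped over the 3 vehicle libraries. Sod1 lay above 97.1% of all genes, Prdx6 above 92.8%, Sod2 above 76.2% and Nqo1 above 21.0%. Under RANKL, Prdx6 was at 80.0, Ucp2 at 59.4, Gpx3 at 58.4 and Sod2 at 29.5 RPKM. The order depends on the length used. With the pooled exon length of GENCODE M21 Gpx1 came first and Sod1 in place 5, and with the length of the principal transcript, an alternative chosen after seeing the data, Sod1 came first again and Ucp2 in place 6.

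**Figure D4:**
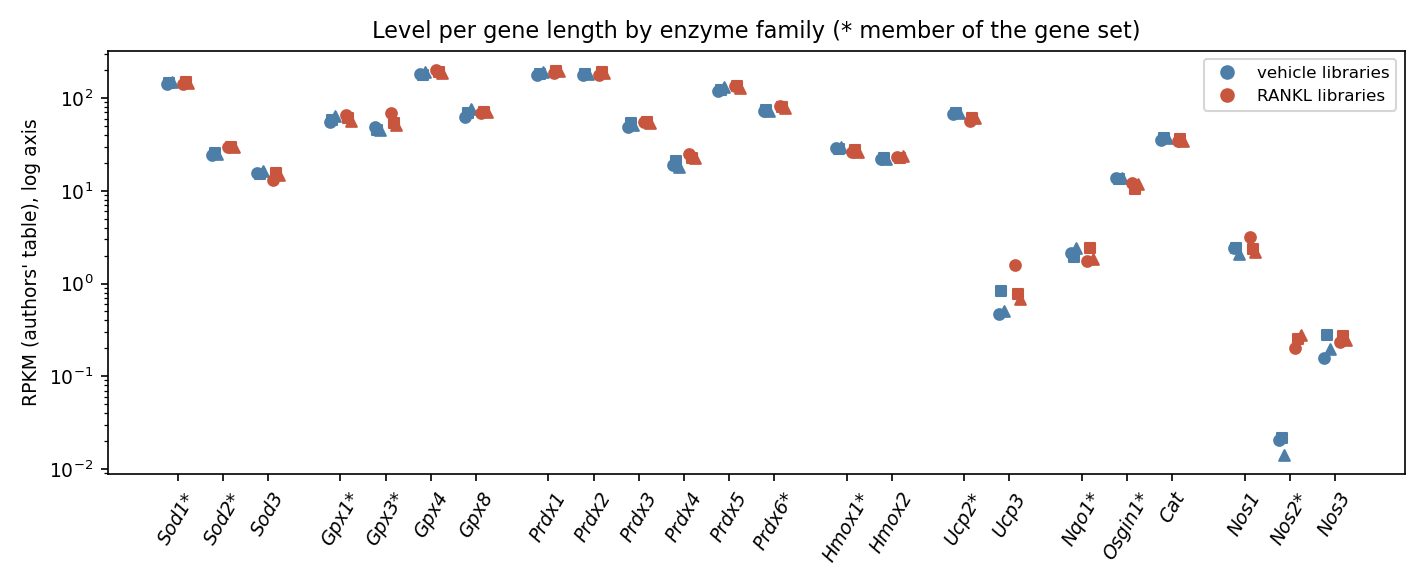
RPKM of each enzyme family from the authors' table on a log axis, with 3 vehicle libraries in blue and 3 RANKL libraries in red and an asterisk on the 10 genes of the set. With the authors' gene lengths, Sod1 lies far above Sod2 and Sod3, and Ucp2 far above Ucp3. Prdx1 and Prdx2 overlap, as do Gpx1, Gpx3 and Gpx8 over the 6 libraries.

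Within the superoxide dismutases the share of the family's RPKM held by Sod2 was 13.5% ± 0.316 in vehicle and 15.6% ± 0.280 in RANKL libraries (SD, n = 3 each), while Sod1 held 78.1% ± 0.158 and 76.8% ± 0.217. The family's sum was 186 ± 5.02 RPKM in vehicle and 189 ± 4.04 RPKM in RANKL libraries, so the sums overlapped in their spread. Gpx3 held 12.9% ± 0.992 of the 4 measured glutathione peroxidases in vehicle and 15.2% ± 1.78 under RANKL, and Gpx4, the peroxidase of lipid peroxides, held 51.4% and 50.5%. Summed over the 6 peroxiredoxins, the level was 613, 632 and 644 RPKM in vehicle and 664, 679 and 666 RPKM in RANKL libraries, which did not overlap. Prdx6 held 11.7% of that sum in vehicle and 11.9% under RANKL. Hmox1 held 56.3% ± 0.856 of the heme oxygenases in vehicle and 53.7% ± 1.27 under RANKL, beside the constitutive Hmox2. Ucp2 made up 99.1% ± 0.283 of the 2 measured uncoupling proteins in vehicle and 98.3% ± 0.905 under RANKL. The sums of 2 families were lower under RANKL, also without overlap. For the heme oxygenases they were 51.4 ± 0.347 RPKM in vehicle and 49.8 ± 0.228 RPKM under RANKL, and for the uncoupling proteins 69.1 ± 0.570 and 60.4 ± 2.34 RPKM. Sums of the glutathione peroxidases overlapped. All these shares and sums rest on the authors' gene lengths, and their SDs do not cover that choice. In vehicle, Sod1 and Sod2 stood at log2 RPKM of 7.18 and 4.65 on the authors' scale. With pooled exon lengths they stood at 4.55 and 3.24, so the gap between them was smaller.

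The wider redox network is described by 8 lists of genes other than the 10, of which 110 of 135 were measured. With edgeR 6 of the 110 passed as higher and 5 as lower, 10% in all, beside 5.35%, 7.5% and 12.9% of all genes. The other 99 did not pass. The median log2 fold change was 0.02, beside 0.0047 over all genes. Of the genes that passed, Slc7a2, Slc11a2, Txnip, Alas1 and G6pdx share exon sequence with a gene on the opposite strand and Mafg with Sirt7 on its own strand, so their counts are uncertain to that extent. No list test was made, and nothing particular to these lists is claimed.

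Of the relatives that detoxify superoxide and peroxide, the 3 in the superoxide list, Sod3, Cat and Ccs, gave 0 calls with edgeR, DESeq2 and limma-voom, and 0 had an unadjusted p under 0.05. Sod3, the extracellular dismutase, had a log2 fold change of -0.12 ± 0.06 (SE, adjusted p = 0.199) and catalase one of -0.05 ± 0.03 (adjusted p = 0.342). Of 24 measured genes of the glutathione cycle Chac1, which degrades glutathione, fell by 0.37 ± 0.08 on the log2 scale (adjusted p = 0.0052), from 16.2 ± 1.52 to 12.5 ± 0.593 CPM (SD, n = 3 each). Mgst1, a membrane glutathione transferase, was called higher (0.33 ± 0.10, adjusted p = 0.0428), but not with DESeq2, with limma-voom or in 5 of the 6 sets with a library left out. Gpx4 (0.07 ± 0.04) and Gpx8 (0.02 ± 0.06) did not pass (adjusted p = 0.254 and 0.823).

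Of the 20 genes of the peroxiredoxin and thioredoxin system 2 rose. Prdx4, the peroxiredoxin of the endoplasmic reticulum, went from 18.8 ± 1.42 to 23.0 ± 1.33 CPM (SD, n = 3 each), a log2 fold change of 0.30 ± 0.06 (adjusted p = 0.00812) that was called in all 13 alternatives. Txnip, which inhibits thioredoxin, was at 122.8, 110.5 and 100.6 CPM in vehicle and at 236, 157 and 136 CPM in RANKL libraries, with RANKL replicate 1 far above the rest. Its log2 fold change was 0.67 ± 0.14 (adjusted p = 0.00654), but 0.40 without RANKL replicate 1, and DESeq2 did not call it (adjusted p = 0.0889, in a range of 3.7e-05 to 0.0889 over the alternatives). Prdx1, Prdx2, Prdx3 and Prdx5 had log2 fold changes of 0.09, 0.04, 0.10 and 0.10, and none of the 4 passed (adjusted p from 0.114 to 0.481).

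The regulators of the stress response did not pass: Nfe2l2, which encodes NRF2, had a log2 fold change of 0.02 ± 0.03 (adjusted p = 0.719), its inhibitor Keap1 one of -0.02 (adjusted p = 0.795) and the repressor Bach1 one of -0.05 (adjusted p = 0.583). Of the 30 measured factors and targets on the NRF2 list, G6pdx, the first enzyme of the NADPH-making pentose phosphate pathway, was called higher (0.23 ± 0.06, adjusted p = 0.0314), and Mafg, a small MAF partner of NRF2, was called lower (-0.15 ± 0.04, adjusted p = 0.0236). Both calls were lost when single libraries were left out, vehicle replicate 1 or RANKL replicate 2 among them for each, and Mafg's also with total count scaling. Of 16 measured genes of heme and iron handling the iron importer Slc11a2 rose from 103 to 121 CPM (0.24 ± 0.03, adjusted p = 0.000313), a call kept in all 13 alternatives. The transferrin receptor Tfrc (203, 209 and 207 CPM in vehicle, 148, 181 and 197 CPM in RANKL libraries) and Alas1, the first enzyme of heme synthesis, were called lower with adjusted p = 0.0391 and 0.0428. Both calls were lost with total count scaling and with DESeq2, Alas1's also without any 1 of the 6 libraries, and Tfrc's without any 1 of the vehicle libraries or RANKL replicate 2. The log2 fold change of Tfrc, -0.24, was -0.13 without RANKL replicate 1. Hmox2 had a log2 fold change of 0.04 (adjusted p = 0.604).

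Among 9 measured NADPH oxidase and xanthine oxidase genes 0 passed with edgeR, DESeq2 or limma-voom, and 1 had an unadjusted p under 0.05. This was Xdh, the xanthine oxidase gene, at a log2 fold change of 0.26 ± 0.08 (adjusted p = 0.0504), and it passed in 4 of 13 alternatives, total count scaling among them (adjusted p = 0.0284, in a range up to 0.167). Nox4, the constitutively active oxidase, stood at 0.04 (adjusted p = 0.725), and Cybb and Cyba are not analysed here. Among the 6 measured uncoupling proteins and adenine nucleotide carriers other than Ucp2, 0 passed with edgeR, DESeq2 or limma-voom, and 1 had an unadjusted p under 0.05. Ucp3, the muscle form, was at 1.08, 1.98 and 1.19 CPM in vehicle and at 3.82, 1.82 and 1.63 CPM in RANKL libraries, so that a single RANKL library lay above the vehicle range. Its log2 fold change was 0.81 ± 0.31 (adjusted p = 0.0982) with all libraries and 0.31 without RANKL replicate 1, and it was called only without RANKL replicate 3 (adjusted p = 0.0366, in a range up to 0.449).

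**Figure D5:**
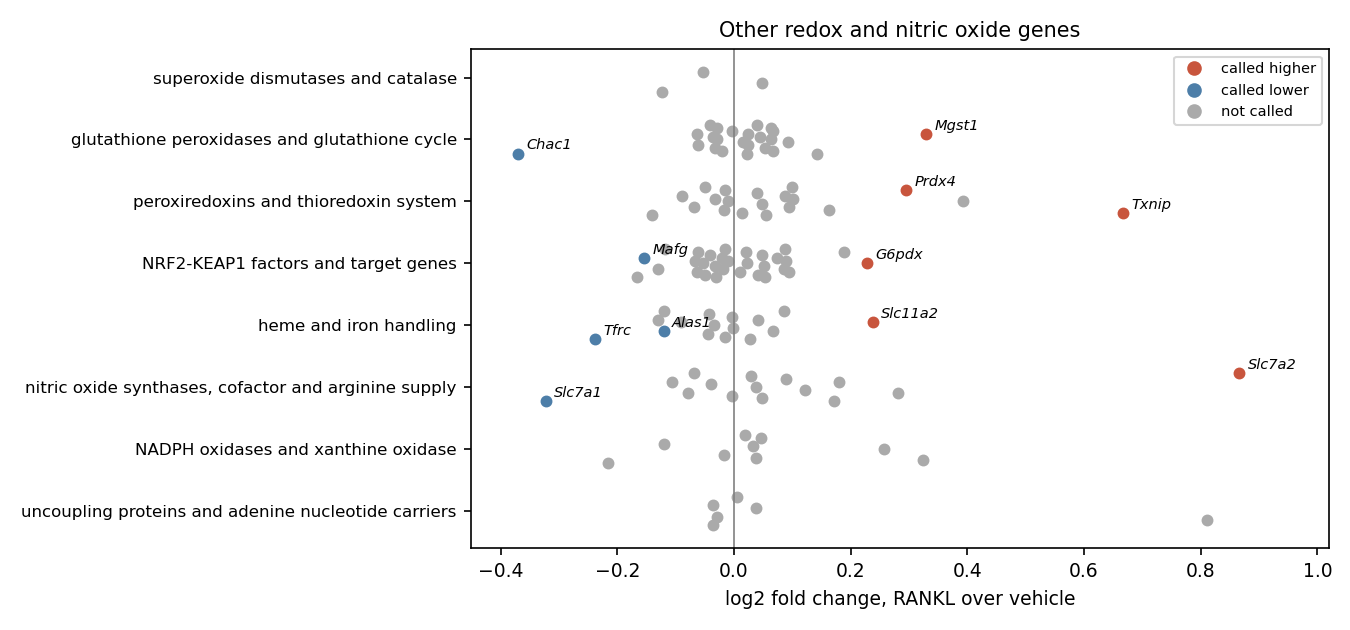
Log2 fold change of the 110 measured genes of the 8 lists (each point 1 gene, a gene in more than 1 list is drawn in each), with edgeR calls in red (higher) and blue (lower) and the rest in grey. Most points lie within 0.2 of 0, and Slc7a2 at 0.87 and Txnip at 0.67 are the highest that passed.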

How the data were processed

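RNA sequencing of 3 RANKL and 3 vehicle libraries of C2C12 cells was compared, with groups taken from the labels. The submitters' processing notes name STAR, FastQC and edgeR with no version, and mm10 as the build. The read counter, its use of strand and the gene annotation are stated in none of the sources used here. The authors deposited whole-number counts for 12625 genes, followed by 4708 blank lines that hold no counts and were left out. In every gene the third-highest library had at least 0.504 CPM, so low genes had been removed before deposit. The authors' other deposited table holds log2 values whose header names no unit. They are read as log2 RPKM because they differ from log2 RPKM of the counts by at most 0.00612, for genes with at least 200 counts, once a constant per gene and per library is removed.

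Counts were tested with edgeR 4.0.16 in R 4.3.3 (TMM scaling, filterByExpr, which removed 0 genes, quasi-likelihood F test, Benjamini-Hochberg adjustment over all genes, threshold 0.05). Fold changes are RANKL over vehicle. DESeq2 1.42.0 and voom of limma 3.58.1 were alternatives, with other scalings, filters, a replicate block and each library left out. The script was tested on simulated data. Chi-square per gene between replicates of a group was 3.39 to 9.52 (genes with at least 20 counts), above sampling noise. Replicates 1 and 3 differed most in each group (8.45 in vehicle, 9.52 in RANKL), and replicates 2 and 3 least (3.39 and 3.48). All 6 libraries were kept. A limit of 3 counts corresponds to 0.0756 to 0.0917 CPM of a library's total and covers counting error only. Positions, exons and codons come from GENCODE M21 (mm10), and promoters from RefSeq (GRCm38.p6).

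The 10 genes, the lists and the tests were chosen with earlier results of these data known. The text names the 10 genes, up to 3 genes past the threshold per list by smallest p (or the gene with the smallest p where none passed), and the measured relatives of the 10. Of the relatives, Gpx7, Ucp1, Arg1, Arg2, Cybb and Cyba are not analysed here. Markers of osteoblasts and adipocytes were checked as well. The 3 measured osteoblast markers summed to 392 to 428 CPM in vehicle and 416 to 446 CPM in RANKL libraries, and 0 passed. Spp1 made up most of that sum, with means of 381 CPM in vehicle and 398 CPM under RANKL and with overlap. Runx2 was lower in every RANKL library (means 32.7 and 30.2 CPM), and Alpl was at 0.511 and 0.514 CPM with overlap. The 1 measured adipocyte marker was at 6.70 to 7.61 CPM in vehicle and 6.66 to 7.43 CPM in RANKL libraries.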

Additional observations from a re-analysis of the deposited data

How the results depend on the processing

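No named gene past the threshold changed direction under any alternative run. With total count scaling 1070 genes were higher and 626 lower, the NRF2 list had 4 higher and 0 lower, the heme and iron list 2 higher and 0 lower, and the NADPH oxidase list 1 higher. With DESeq2 the glutathione list had 0 higher, the peroxiredoxin and thioredoxin list 1 higher, the NRF2 list 2 higher and the heme and iron list 0 lower. With limma-voom the glutathione list had 0 higher and the NRF2 list 2 higher. With at least 1 CPM in 3 libraries the NADPH oxidase list had 1 higher, and Nos2 was not tested. The causes were not tested.

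With a replicate block 730 genes were higher and 1008 lower, the NADPH oxidase list had 1 higher, the NRF2 list 2 lower and the heme and iron list 1 lower, with Alas1 not called (adjusted p = 0.0534, in a range of 0.0428 to 0.149 over its alternatives). Deviations of same-numbered libraries correlated by 0.118, 0.0534 and 0.0178, and those of differently numbered ones by -0.102 to 0.0505. Vehicle replicates 1 and 2 correlated best with the RANKL library of their own number, and vehicle replicate 3 with RANKL replicate 2. Whether same-numbered libraries share more than a number was not tested.

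Leaving out 1 library gave 373 to 746 genes higher and 537 to 880 lower. The counts were smallest without vehicle replicate 1 (426 higher, 561 lower) or vehicle replicate 2 (373 higher, 537 lower), and 596 were lower without RANKL replicate 2, each with fewer samples. The glutathione list then had 0 to 1 higher, the peroxiredoxin and thioredoxin list 2 to 4 higher and 0 to 1 lower, the NRF2 list 0 to 2 higher and 0 to 2 lower, the heme and iron list 1 to 2 higher and 0 to 2 lower, the NADPH oxidase list 0 to 1 higher and the uncoupling list 0 to 1 higher. Of the 10 genes, 4 to 6 were called over all alternatives. Per-length levels moved beyond the spread of replicates for 8 of 9 genes with pooled exon lengths and for 5 of 9 with principal transcript lengths. Depth limits Nos2, with 2 counts in vehicle, and Nqo1.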
